A study of Drosophila melanogaster with 4 samples.

Results

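The ELAV family of *Drosophila melanogaster* comprises elav (FBgn0260400), fne (FBgn0086675) and Rbp9 (FBgn0010263), which encode RNA-binding proteins of neurons. The 3 genes were taken by FlyBase identifier, matched through the gene name, out of 14885 genes in the count tables, and all 3 had reads in every library and passed the filter on low counts. RNA was sequenced from eye-antennal imaginal discs, the larval epithelia that form the adult eye and antenna, of larvae in the last instar, at the wandering stage. Wild-type discs came from 2 strains, Canton S (1 library) and RAL-208 (1 library), and mutant discs came from gl[60j], an allele of glass, with 2 libraries that the design text calls technical replicates. The glass product, a zinc finger protein that binds DNA, is required for photoreceptors to mature. No driver, transgene or drug is named for any group, and the background of the mutant stock cannot be told apart from its genotype. The number of animals or discs per library, and their sex, were not given in the sources used.

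ELAV proteins bind U-rich RNA through RNA recognition motifs and steer splicing and the choice of polyadenylation site in neurons. In the eye disc, cells behind the morphogenetic furrow switch on elav as they become photoreceptors, so its protein is the usual marker of neuronal identity there. FNE is mostly cytoplasmic in neurons and can stand in for ELAV in the nucleus when ELAV is missing, while RBP9 acts in neurons and also in the female germline.

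In the reference annotation, assembly BDGP6, elav and fne lie on chromosome X and Rbp9 lies on chromosome 2L. The annotation lists 4 transcripts of elav, with proteins of 479 to 483 residues, 11 of fne, with proteins of 353 to 371 residues, and 9 of Rbp9, with proteins of 439 to 684 residues. The deposited counts are per gene and do not separate these transcripts. The authors' build is dm3, so coordinates are not given.

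Between 11292175 reads (the first mutant library) and 27044633 reads (the second) were assigned to genes per library, with 12118170 for Canton S and 11805345 for RAL-208, and levels are given as CPM, reads of a gene per 1000000 reads assigned to genes. Intervals of a single library are exact 95% binomial intervals and cover counting error only. The mutated gene gl was itself at 299 CPM in Canton S, 235 CPM in RAL-208, and 105 and 108 CPM in the gl[60j] libraries. The eye disc genes sev (336, 287, 220 and 219 CPM in the same order) and ato (77.0, 64.7, 61.1 and 60.5) were present in every library. Larval fat body genes set the libraries apart, since Fbp1 was at 7835 CPM in Canton S and 56.8 in RAL-208, against 1894 and 1840 in the mutant libraries.

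All 3 members were lower in the glass mutant discs than in either wild-type strain, elav by 1.73-fold, fne by 2.92-fold and Rbp9 by 2.20-fold, as the ratio of the wild-type mean to the summed mutant libraries. None of them passed the multiple-testing threshold of the fit that treats both mutant libraries as 1 sample. The groups did not overlap for 3 of 3 members, but neither did they for 41.0% of all tested genes in the same direction. A lowest wild-type CPM at least 1.5 times the highest mutant CPM, which all 3 members had, was found for 12.6% of tested genes. In bulk tissue, fewer neurons and less of these transcripts per neuron cannot be told apart.

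The founding member elav, which encodes a mainly nuclear regulator of neuronal splicing and 3′ end choice, was the most abundant of the family. Canton S had 2322 elav reads, RAL-208 had 2764, and the mutant libraries had 1437 and 3292. These correspond to 192 CPM (95% interval 184 to 199.6), 234 CPM (225 to 243), 127 CPM (121 to 134) and 122 CPM (118 to 126). The mutant libraries lay close together, and RAL-208 stood above Canton S. The wild-type mean was 213 ± 30.1 CPM (SD, n = 2 strains), and the summed mutant libraries stood at 123 CPM, 57.9% of it. The corresponding share was 34.2% for fne and 45.4% for Rbp9.

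The related gene fne (found in neurons) had the largest ratio of wild-type mean to mutant level in the family (2.92) and also the largest ratio between the wild-type libraries. The first order rests on RAL-208, since against Canton S alone the ratio was 2.30 for Rbp9 and 2.08 for fne. Canton S had 848 fne reads, RAL-208 had 1497, and the mutant libraries had 420 and 871. These correspond to 69.98 CPM (95% interval 65.3 to 74.9), 127 CPM (120 to 133), 37.2 CPM (33.7 to 40.9) and 32.2 CPM (30.1 to 34.4). Both mutant libraries lay below Canton S, the lower of the wild types. The wild-type mean was 98.4 ± 40.2 CPM (SD, n = 2 strains), against 33.7 CPM in the summed mutant libraries. Set against Canton S alone the mutant was 2.08-fold lower, and against RAL-208 alone 3.77-fold lower, so 1 strain decides much of the size.

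The third member, Rbp9, which encodes a neuronal protein that in the ovary acts on bam RNA, was the least abundant. Canton S had 153 Rbp9 reads, RAL-208 had 136, and the mutant libraries had 57 and 153. These correspond to 12.6 CPM (95% interval 10.7 to 14.8), 11.5 CPM (9.67 to 13.6), 5.05 CPM (3.82 to 6.54) and 5.66 CPM (4.80 to 6.63). The intervals of the wild types and of the mutant libraries did not overlap, although the counts were small. The wild-type mean was 12.1 ± 0.782 CPM (SD, n = 2 strains), and the summed mutant libraries stood at 5.48 CPM. The differences from Canton S (2.30-fold) and from RAL-208 (2.10-fold) were nearly alike.

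**Figure D1:**
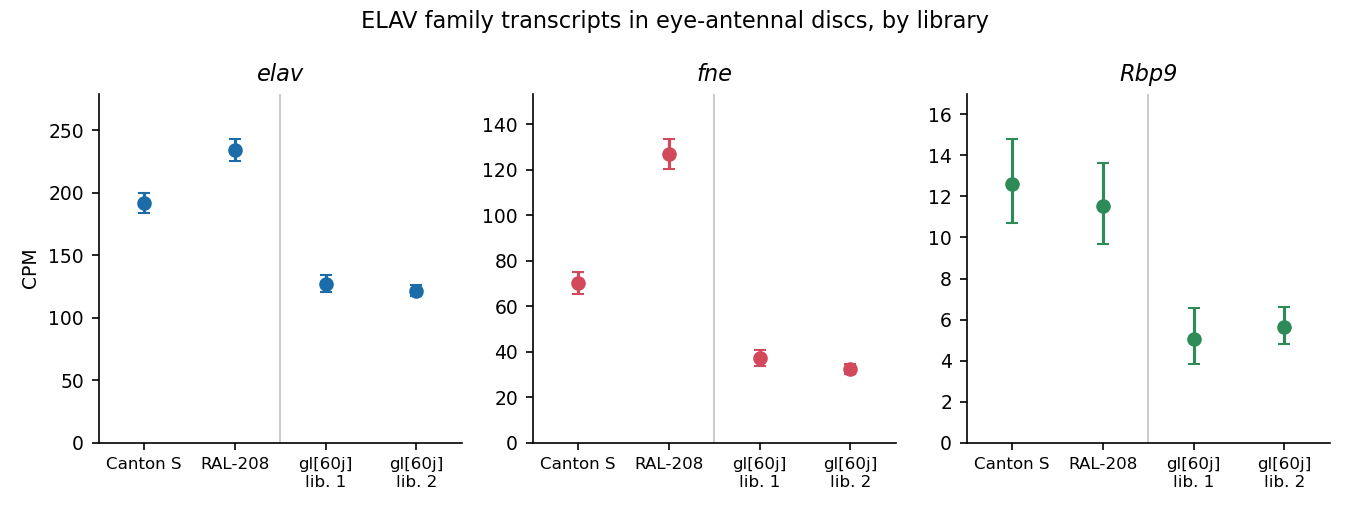
CPM of elav, fne and Rbp9 (vertical axes, linear and starting at 0) in the 4 libraries, with exact 95% binomial intervals as bars. Each member is lower in both gl[60j] libraries than in Canton S and RAL-208, and fne differs most between Canton S (69.98 CPM) and RAL-208 (127 CPM).

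The genotypes were compared with the quasi-likelihood test of edgeR on all genes. With the mutant libraries summed to 1 sample, the fit has 1 residual degree of freedom, which comes from how far Canton S and RAL-208 differ. The fit also borrows 2.53 prior degrees of freedom from the spread over all tested genes, for a median total of 3.53. It assumes that the lone mutant sample varies like the wild types, and it called 0 of 9059 tested genes in either direction at an adjusted p under 0.05, 0% of them (unadjusted p under 0.05 for 923 lower and 583 higher). For elav the fitted log2 fold change was -0.71 (SE 0.17, 95% interval -1.22 to -0.21), with an edgeR adjusted p of 0.233. For fne it was -1.47 (SE 0.43, -2.72 to -0.22), with an edgeR adjusted p of 0.261. For Rbp9 it was -1.07 (SE 0.33, -2.02 to -0.11), with an edgeR adjusted p of 0.271. The unadjusted edgeR p-values were 0.0188, 0.0319 and 0.0373, and the 3 members were among the 10.2% of tested genes that were lower with such a p under 0.05, against 6.44% that were higher.

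When the mutant libraries entered edgeR as 2 separate samples, all 3 members were called lower, with adjusted p-values of 0.0241 for elav, 0.0422 for fne and 0.0280 for Rbp9. This 4-library fit called 11.3% of tested genes lower and 8.05% higher, and it counts technical replicates as samples, which makes its p-values too small, and its calls serve only as a description. DESeq2 on the summed libraries called 4.28% of tested genes lower and 1.68% higher, the lower ones including elav (adjusted p 0.0220) and fne (adjusted p 0.00436) but not Rbp9 (adjusted p 0.482). With limma-voom on the same columns 0 genes were called (unadjusted p under 0.05 for 1055 lower and 748 higher), and the members' adjusted p-values were 0.182, 0.214 and 0.183. Whether the members are called thus depends on the tool and on how the technical replicates enter, while the direction was the same in each. Over all alternatives with a test, the adjusted p ran from 0.0220 to 0.428 for elav, from 0.00436 to 0.452 for fne and from 0.0280 to 0.482 for Rbp9.

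Among all tested genes, 7.91% had a lower fitted log2 fold change than fne, 11.4% a lower one than Rbp9 and 15.3% a lower one than elav, and the median over all tested genes was 0.0014. Members of the family were thus in the lower part of the distribution but not at its end.

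**Figure D2:**
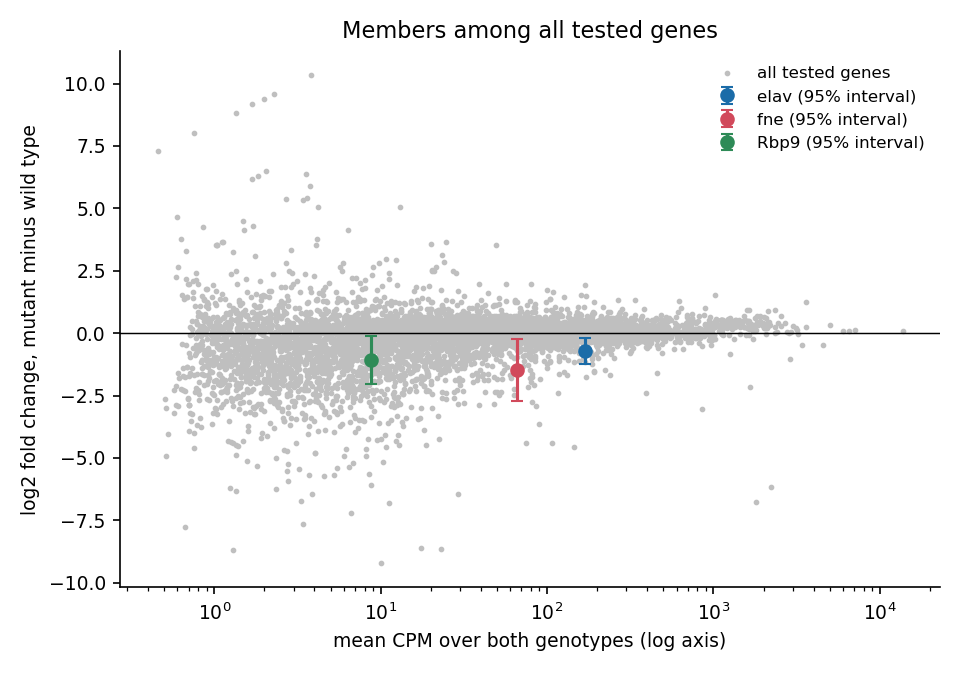
Fitted log2 fold change, mutant minus wild type, against mean CPM over both genotypes (log axis) for the 9059 tested genes in grey, with the members in colour and their 95% intervals as bars. The members lie between -1.47 and -0.71, with fne lowest.

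The wild-type libraries were also compared with each other, 1 library a strain, by exact binomial tests that cover counting error only. Reads of elav were 1.22 times as frequent in RAL-208 as in Canton S (95% interval 1.16 to 1.29, exact binomial p 1.01e-12). Those of fne were 1.81 times as frequent (1.66 to 1.97, exact binomial p 3.68e-45). For Rbp9 the ratio was 0.912 (0.719 to 1.16, exact binomial p 0.445), a difference not detectable at this depth. These tests compare the libraries, not the strains, and 6 pairs of values were tested in all. On the scale of log2(CPM + 1), 7.59% of tested genes differed more between the strains than fne, 31.5% more than elav and 61.5% more than Rbp9. Between the technical replicates of the mutant, the second library stood at 0.957 times the first for elav (0.899 to 1.02, exact binomial p 0.160). The ratio was 0.866 for fne (0.770 to 0.975, exact binomial p 0.0159) and 1.12 for Rbp9 (0.822 to 1.55, exact binomial p 0.496). Adjusted over the 6 pairs, the exact binomial p was 2.21e-44 and 3.03e-12 for fne and elav between strains, 0.0318 for fne between technical replicates, and between 0.241 and 0.496 for the others.

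Levels of different genes were compared per length, since longer transcripts collect more reads. Per kilobase of the longest annotated coding sequence (1.449 kb for elav, 1.113 kb for fne and 2.052 kb for Rbp9), elav stood at 132 CPM in Canton S and 162 CPM in RAL-208. On the same scale fne stood at 62.9 and 114 CPM and Rbp9 at 6.15 and 5.61 CPM. The mutant levels per coding kilobase were 87.8 and 84.0 CPM for elav, 33.4 and 28.9 for fne and 2.46 and 2.76 for Rbp9. The order elav, fne, Rbp9 held in every library, and neighbours in that order did not overlap within a genotype. Per kilobase of all annotated exons (10.7, 9.56 and 8.05 kb), which includes long untranslated regions that the authors' annotation may lack, the order was again the same. On that scale elav ranged from 11.4 to 21.9 CPM, fne from 3.37 to 13.3 and Rbp9 from 0.627 to 1.57 over the 4 libraries.

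Ratios between members do not depend on how libraries are scaled. For every 100 elav reads there were 36.5 fne reads in Canton S and 54.2 in RAL-208, against 29.2 and 26.5 in the mutant libraries. Both mutant values lay below both wild-type values. The log2 ratio of fne to elav was 0.70 lower in the summed mutant libraries than the wild-type mean (difference -0.70, wild-type SD 0.40), between -0.99 without Canton S and -0.42 without RAL-208. For every 100 elav reads there were 6.59 and 4.92 Rbp9 reads in the wild-type strains and 3.97 and 4.65 in the mutant libraries, a log2 difference of -0.36 (wild-type SD 0.30). Rbp9 reads per 100 fne reads overlapped between genotypes, at 18.0 and 9.08 in the wild-type strains and 13.6 and 17.6 in the mutant libraries. With 2 wild-type samples against 1 mutant sample the smallest exact permutation p is 0.333, so these ratios were not tested. Of the family's reads, the share held by elav was 69.9% for Canton S, 62.9% for RAL-208, and 75.1% and 76.3% for the mutant libraries.

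**Figure D3:**
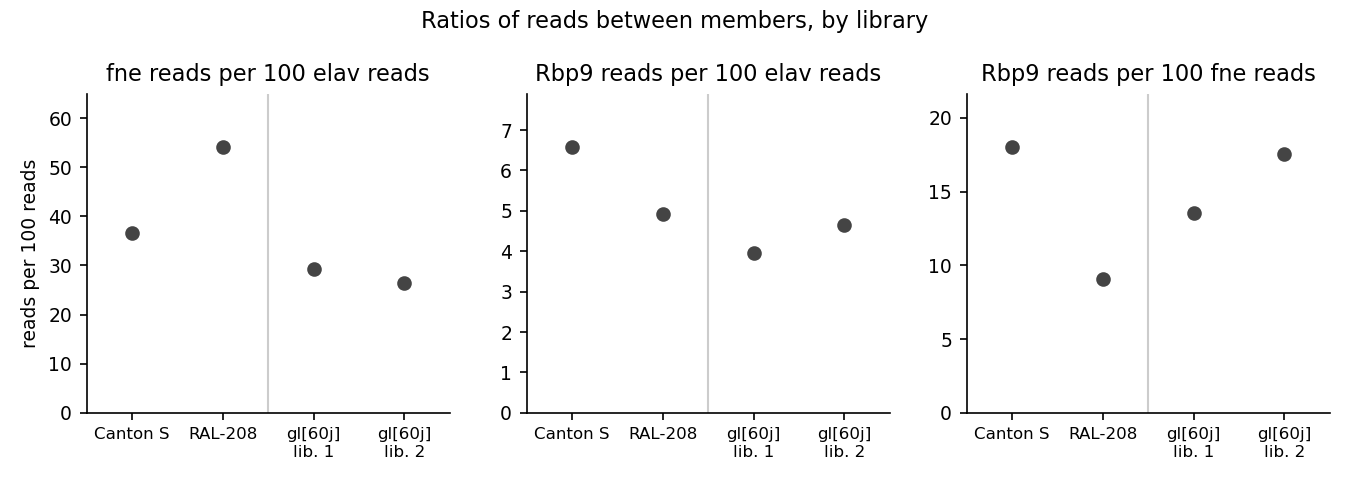
Reads of one member per 100 reads of another (vertical axes, linear and starting at 0) in the 4 libraries. The fne to elav ratio is lower in both gl[60j] libraries (29.2 and 26.5) than in the wild-type strains (36.5 and 54.2), whereas the Rbp9 to fne ratio overlaps between genotypes.

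Genes that other neurons share with photoreceptors were examined beside the family. A list of 26 neuron and synapse genes, written with earlier results of these data known, had 22 members in the tables, all of them tested. In the summed edgeR fit 0 members were called (unadjusted p under 0.05 for 17 lower and 0 higher), and the 4-library fit called 18 lower and 0 higher, where 10.2% of all tested genes were lower by the first count and 11.3% by the second. The list's median log2 fold change was -1.37, with 21 of 22 genes below 0. Of the 22 genes, 14 had a lower log2 fold change than elav, 13 a lower one than Rbp9 and 10 a lower one than fne. The members thus lay within the list's range, as they also did for the fate regulators and other RNA-binding genes described below. The gene with a positive value was Fas2, a cell adhesion gene, at 497 and 473 CPM in the wild-type strains, and 544 and 535 in the mutant. The Alk ligand gene jeb was at 48.8 and 46.1 CPM in the wild-type strains, and 8.15 and 7.10 in the mutant. Rdl, a GABA receptor subunit gene, was at 6.11 and 13.7 CPM against 1.33 and 0.850. By the mean over both genotypes, the most abundant member was Appl, the amyloid precursor protein-like gene. It was at 646 and 646 CPM against 562 and 555 and was not called in any of the tests.

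Summed over this list, the libraries held 4275 and 4531 CPM in the wild-type strains and 2799 and 2767 in the mutant, 1.58-fold lower. Its 5 most abundant genes in wild type, unc-13, Appl, Nrt, Fas2 and CadN, held 64.2% of the wild-type sum, so levels relative to the sum are mostly levels relative to those genes. For every 100 CPM of the sum, elav had 4.48 and 5.17 CPM in the wild-type strains, and 4.55 and 4.399 in the mutant, which was near Canton S and below RAL-208. On the same scale fne had 1.64 and 2.80, against 1.33 and 1.16 in the mutant, and Rbp9 had 0.295 and 0.254 against 0.180 and 0.204. Against this sum both mutant libraries lay below both wild types for fne and Rbp9, whereas by fitted log2 fold change Rbp9 and elav stood above the list's median gene. These relative levels were not tested.

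Markers of neurons outside the disc were lower in the mutant libraries as a sum, and 16 of 17 tested ones had a log2 fold change below 0. A list of 23 genes for transmitters, neuropeptides and receptors of the larval brain and nerve cord had 21 members in the tables. None of the 21 was at 0 in all libraries. Canton S held 205 CPM over the whole list, RAL-208 held 323, and the mutant libraries held 104 and 94.1. Of 17 tested members, 0 were called in the summed edgeR fit (unadjusted p under 0.05 for 12 lower and 0 higher), 13 were called lower by the 4-library fit (10.2% and 11.3% of all tested genes by these counts), and the median log2 fold change was -2.10. Gad1, the glutamate decarboxylase gene of GABA neurons, was at 11.3 and 36.8 CPM in the wild-type strains, and 1.51 and 1.29 in the mutant. The exception was ple, the tyrosine hydroxylase gene of dopamine synthesis, at 16.6 and 5.59 CPM in the wild-type strains, and 39.4 and 33.5 in the mutant, above both. Pdf, the circadian neuropeptide gene, was at 3.05 and 3.98 CPM in the wild-type strains, with 0 reads and 0.111 CPM in the mutant libraries. By the mean over both genotypes, the most abundant tested member was Nplp1, a neuropeptide precursor gene, at 46.2 and 36.4 CPM against 30.2 and 28.3. By the wild-type mean it was VGlut, at 44.8 and 67.1 CPM in the wild-type strains, and 7.08 and 7.95 in the mutant. RAL-208 was thus 1.58 times Canton S in this list and 1.81 times in fne. Of the 17 tested markers 14 were higher in RAL-208, as were 4700 of all 9059 tested genes. The markers that the filter dropped, Ilp2, Hug, Ilp5 and Tk, enter the sum and were also higher there, Ilp2 at 15.8 CPM against 0.743 in Canton S. The part of central nervous tissue in the family's differences was not tested.

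Photoreceptor genes, those of the neurons that the eye disc itself makes, were lower in the mutant libraries as a sum. The list includes gl, the mutated gene itself, which enters the sum and counts among the lower genes. Its log2 fold change of -1.25 is also the list's median. Of 18 written genes 16 were in the tables and 15 tested, with a median log2 fold change of -1.25. In the summed edgeR fit 12 of the 15 had a log2 fold change below 0 and 3 above. The 4-library fit, which counts technical replicates as samples, placed 12 lower and 1 higher, beside 11.3% and 8.05% of all tested genes. The higher one was ro, a homeobox gene of the eye disc, at 11.3 and 12.5 CPM in the wild-type strains, and 20.4 and 21.1 in the mutant. Also above 0 by log2 fold change were B-H1, at 77.0 and 51.3 CPM against 74.7 and 77.4, and B-H2, at 89.5 and 59.8 against 102 and 97.7. The whole photoreceptor list summed to 1391 CPM in Canton S and 1214 in RAL-208, against 826 and 819 in the mutant. The photoreceptor homeobox gene Pph13 was at 3.30 and 1.86 CPM in the wild-type strains with no mutant reads (0), and inaC, the eye protein kinase C gene, was at 36.2 and 33.0 CPM with 3 mutant reads. The receptor gene sev was the most abundant, with the values given above. The sum of the photoreceptor list was lower in RAL-208 than in Canton S, whereas elav and fne were higher there.

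Other cell types and tissues that the preparation could hold were looked at through further marker lists. The 8 glia markers summed to 1020 and 953 CPM in the wild-type strains, and 1024 and 1003 in the mutant, so that list's sum did not separate the genotypes. Gli held 41.0% of the wild-type sum, however. By gene, 6 of 8 markers had each mutant value under each wild-type value, as had 41.0% of all tested genes (3713 of 9059). The list's median log2 fold change was -0.40. The other 2, Gli and repo, a homeobox gene of glia, were higher in both, as were 26.2% of all tested genes. Lower ones included Mdr65, a transporter gene of the blood-brain barrier, at 36.2 and 34.5 CPM against 12.3 and 11.8, and wrapper, a gene of a glial surface protein, at 21.2 and 21.9 against 7.53 and 8.54. Gli, the septate junction gene gliotactin, was at 435 and 374 against 568 and 564, and repo at 34.4 and 26.9 against 42.3 and 38.1. Ring gland markers summed to 626 and 443 CPM against 403 and 388. Among them Akh, the adipokinetic hormone gene, was at 25.99 and 18.8 against 0.354 and 0.111, and spok, a gene of ecdysone synthesis, at 373 and 313 against 177 and 160. Of the other ring gland markers, sad was higher in both mutant libraries, at 194 and 101 against 207 and 209. The gene dib overlapped between genotypes, at 31.6 and 7.96 against 17.6 and 16.6. The list also holds Ptth, which is not a gene of the gland itself, at 2.31 and 2.29 against 1.06 and 1.37. Haemocyte markers summed to 353 and 721 CPM against 346 and 321, with NimC1 at 16.5 and 20.0 against 6.996 and 5.88 and srp at 38.2 and 42.4 against 23.7 and 21.9. Hml, the most abundant of them, was at 149 and 395 against 187 and 175. Muscle markers summed to 169 and 237 CPM against 158 and 152, with twi at 4.87 and 4.66 against 7.35 and 7.69, Mef2 at 56.0 and 66.2 against 44.5 and 43.9, and Act57B at 80.0 and 97.8 against 69.6 and 65.9. Fat body markers summed to 19341 and 10388 CPM against 2787 and 2711, with Lsp1beta at 2043 and 5065 against 31.9 and 31.1 and Lsp1gamma at 3841 and 4944 against 56.7 and 57.7. The other fat body markers overlapped between genotypes, since the mutant values of Lsp2 (5157 and 302 against 598 and 573), Fbp2 (465 and 20.2 against 206 and 210) and Fbp1, given above, lay between those of the strains. None of these 5 lists had a gene at 0 in all libraries, and their part in the family's differences was not tested.

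**Figure D4:**
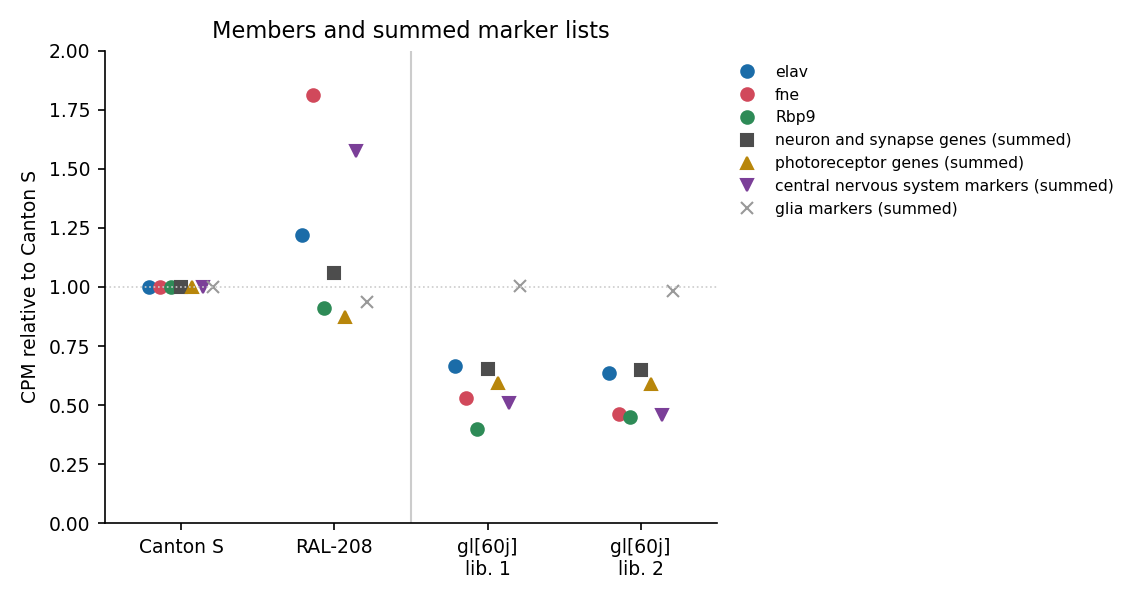
CPM relative to Canton S (vertical axis, linear and starting at 0) for the 3 members and for 4 summed marker lists, in the 4 libraries. Of the items drawn, fne (1.81) and the central nervous system markers (1.58) are highest in RAL-208. In the gl[60j] libraries all items but the glia markers lie at 0.664 or below. The glia sum is held mostly by Gli and nrv2, and 6 of its 8 genes are lower in the mutant.

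Regulators of neuronal fate, which act upstream of or beside elav in the decision to become a neuron, had a median log2 fold change of -0.02 over 11 tested genes. In the summed edgeR fit 0 were called (unadjusted p under 0.05 for 4 lower and 1 higher), and the 4-library fit called 4 lower and 1 higher, beside 11.3% and 8.05% of all tested genes (10.2% and 6.44% by the unadjusted p). The homeodomain gene pros, which is also used in the brain, was at 145 and 236 CPM in the wild-type strains, and 59.2 and 62.8 in the mutant. The gene ase, a proneural gene of neural precursors, was at 15.7 and 23.3 CPM against 8.24 and 6.58. The most abundant member, ttk, whose product represses neuronal fate, was in the other direction, at 374 and 348 CPM against 496 and 494, with a log2 fold change of 0.53 (SE 0.12) and an edgeR adjusted p of 0.222.

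Other RNA-binding regulators of neurons stood on both sides of 0. Of 22 written genes 16 were tested, 7 with a log2 fold change below 0 and 9 above, and the median was 0.02. In the summed edgeR fit 0 were called (unadjusted p under 0.05 for 3 lower and 1 higher), and the 4-library fit called 3 lower and 2 higher, which for a list of 16 is near the 11.3% and 8.05% of all tested genes (10.2% and 6.44% by the unadjusted p). The Musashi family gene Rbp6 was at 81.8 and 81.4 CPM in the wild-type strains, and 24.8 and 26.3 in the mutant, 3.15-fold lower. The gene bru1, a translational repressor gene, was at 12.5 and 11.9 CPM against 6.02 and 5.47, values close to those of Rbp9. Syp, a regulator of RNA in neurons and neuroblasts and the most abundant of the list, was at 813 and 992 CPM against 725 and 769. The gene ssx, a relative of Sex-lethal with similar RNA recognition motifs, was at 226 and 205 CPM against 221 and 211, and Sxl itself was not analysed here.

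Transcripts known from the literature as targets of the family were looked at on the level of the whole gene, which does not show splicing or 3′ end choice. Of 14 written genes 10 were in the tables and 9 tested, with a median log2 fold change of -0.16 and 6 below 0. In the summed edgeR fit 0 were called (unadjusted p under 0.05 for 2 lower and 0 higher), and the 4-library fit called 2 lower and 0 higher, of 9, beside 11.3% and 8.05% of all tested genes (10.2% and 6.44% by the unadjusted p). The lower ones by both counts were ewg and shep, itself an RNA-binding protein gene, at 224 and 266 CPM in the wild-type strains, and 168 and 166 in the mutant. The gene ewg, a transcription factor gene whose RNA is a known splicing target of ELAV, was at 204 and 227 CPM in the wild-type strains, and 132 and 134 in the mutant, 1.61-fold lower. The gene mei-P26, a TRIM-NHL family growth regulator gene, was at 88.4 and 122 CPM against 67.7 and 61.0, 1.67-fold lower. The gene arm, the beta-catenin gene with a neuronal splice form, was the most abundant at 1369 and 1164 CPM against 1331 and 1336.

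**Figure D5:**
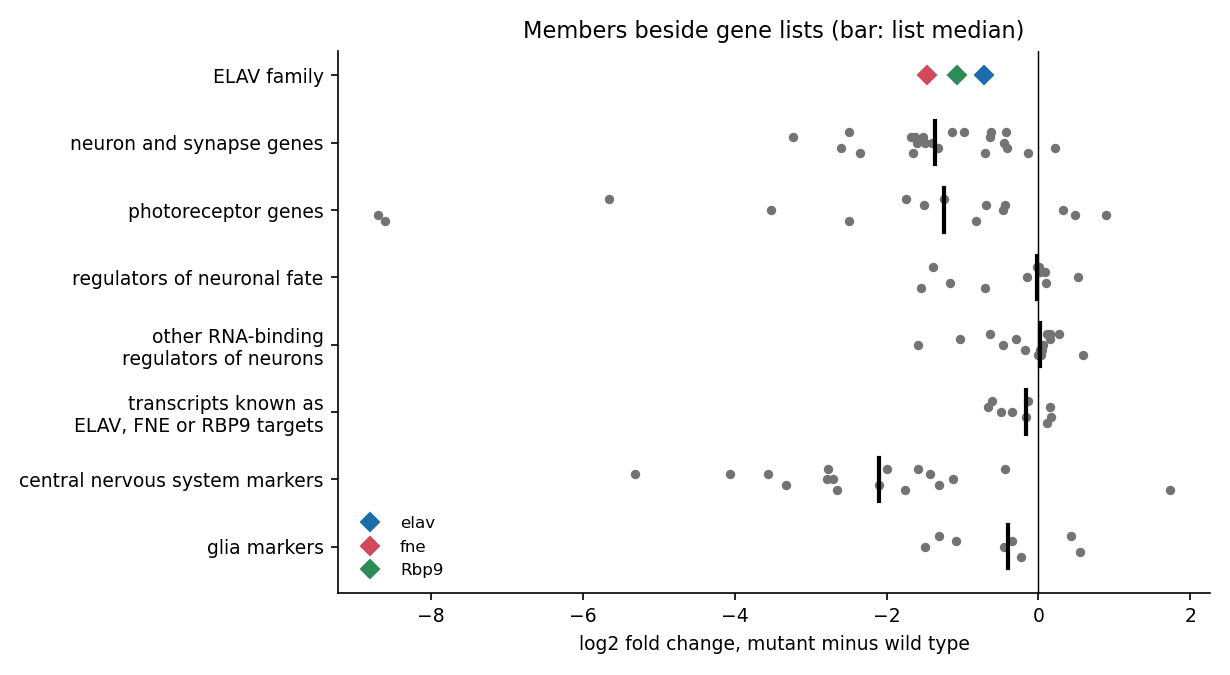
Fitted log2 fold changes, mutant minus wild type (horizontal axis), of the 3 members (diamonds) and of the tested genes of 7 lists (points), with each list's median as a bar. The members lie within the range of the neuron and synapse genes, whose median is -1.37. They also lie within the ranges of the photoreceptor, central nervous system, fate regulator, other RNA-binding and glia lists. They lie below the range of the target transcripts, whose lowest value is -0.66. The medians of fate regulators and other RNA-binding genes lie near 0.

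Genes whose pattern over the 4 libraries was most like each member were ranked by the distance between centred log2(CPM + 1) values, among 6863 tested genes with a mean of at least 10 CPM. Nearest to elav were CG10132 (24.3 and 29.8 CPM in wild type, 16.4 and 15.8 in the mutant, distance 0.0535), plum (214 and 251 against 136 and 131, distance 0.0548) and Haspin (90.4 and 117 against 61.5 and 59.4, distance 0.0591). The gene plum encodes a surface protein of neurons and Haspin a histone kinase. Nearest to fne were CG16704 (20.7 and 36.7 against 10.1 and 8.80, distance 0.0549), the potassium channel gene Sh (12.2 and 20.7 against 5.58 and 4.81, distance 0.102) and Teh2 (11.4 and 20.5 against 5.84 and 5.32, distance 0.131), a subunit gene of the sodium channel. Nearest to Rbp9 were the synaptotagmin gene Syt4 (139 and 130 against 65.8 and 70.1, distance 0.0766), CG15097 (43.9 and 40.6 against 17.8 and 19.8, distance 0.0871) and the acetylcholinesterase gene Ace (114 and 97.2 against 50.8 and 55.2, distance 0.0979). The members were not each other's nearest genes. The genes elav and Rbp9 were 0.427 apart, with 526 candidate genes nearer to elav than Rbp9 was, and 196 nearer to Rbp9 than elav was. By contrast, fne was 0.773 from elav and 0.820 from Rbp9. With 12.1 CPM as wild-type mean and 5.48 in the summed mutant libraries, Rbp9 itself lay below the 10 CPM asked of candidates. The added 1 CPM therefore weighs more on its distances. The points behind each distance are only 4 libraries, of which the mutant pair are technical replicates.

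Overlapping annotation bears on 2 of the members. In BDGP6, 673 bases of elav exons (6.28% of their length) overlap the antisense gene arg, which had 39 and 101 reads in the wild-type strains and 16 and 56 in the mutant. A further 2994 bases (27.9%) overlap lncRNA:enrr on the same strand, a gene not analysed here. Of the Rbp9 exons, 142 bases (1.76%) overlap the antisense gene Ts, which had 490 and 479 reads in the wild-type strains and 439 and 1137 in the mutant, more than Rbp9 in each library. Whether counting used strand is not given in the sources used, so reads of these stretches cannot be told apart with certainty. For fne the annotation shows no overlapping gene.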

How the data were processed

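RNA sequencing libraries of 4 samples were analysed. Libraries followed the TruSeq protocol of Illumina, per the labels. The submitters' processing notes name CASAVA 1.8, TopHat2 2.0, HTSeq and the build dm3, but not what each was used for. The values deposited by the authors are raw read counts per FlyBase gene. Summary lines of the counter, 23.3% to 25.6% of each table's total, entered neither library sizes nor tests. Of 14885 genes, 13746 had a symbol in the reference table.

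Both mutant libraries were summed to 1 sample. Genes were filtered with filterByExpr (minimum count 10) on the 4 libraries, scaled by TMM and tested with edgeR 4.0.16 in R 4.3.3, adjusted by Benjamini-Hochberg over all 9059 genes at 0.05. DESeq2 1.42.0, limma 3.58.1 (voom), other scalings, other filters and leaving out each library were alternatives. Nothing says how many animals a library holds, so p-values measure only the spread between these samples. The fit script was tested on simulated data. Folds are ratios of CPM without TMM, and log2 fold changes are fitted with it. The members and lists were chosen with earlier results of these data known. Named genes are, per list, the 2 with the largest fitted change and the most abundant by the mean over both genotypes, the 3 nearest in pattern to each member, and gl. The genes ato, Fas2, ple, VGlut, Ilp2, Hug, Ilp5, Tk, ro, B-H1, B-H2, repo, sad, dib, Ptth, Lsp2, Fbp2 and shep, and those said to hold most of a list's sum, were named outside this rule after their values were seen. List entries without a match in the tables are not analysed here.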

Additional observations from a re-analysis of the deposited data

How the results depend on the processing

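The direction of elav, fne and Rbp9 was the same under every alternative run. In the 4-library fit the log2 fold changes were -0.71 for elav, -1.44 for fne and -1.10 for Rbp9, and in DESeq2 they were -0.72 for elav and -1.48 for fne, each now past the threshold of 0.05, in the first case because technical replicates count as samples and in the second for a cause that was not tested. The counts of called genes moved from 0 to 1025 lower and 729 higher in the 4-library fit and to 388 lower and 152 higher in DESeq2. Leaving out 1 library at a time, the log2 fold change ran from -0.84 to -0.57 for elav, from -1.83 to -0.99 for fne and from -1.21 to -0.99 for Rbp9, and the counts of called genes stayed at 0 where a test was possible. Without a wild-type strain the summed fit has no residual degrees of freedom and gives no test. The log2 ratio to elav ran from -0.99 to -0.42 for fne and from -0.57 to -0.15 for Rbp9. The log2 ratio of Rbp9 to fne was 0.35 higher in the mutant and ran from -0.15 to 0.84, reversed to -0.15 without RAL-208.

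The filter on the 3 summed columns was chosen after seeing the data, and that the filter reported uses the 4 libraries was also settled after both were run, with 0 genes called under either. Among other genes, ssx went to -0.013 with library totals and ran from -0.014 (without RAL-208) to 0.14, which is also the median of its list of 1 gene. Hml ran from -1.07 to 0.33 (without RAL-208), and Fbp1 from -2.01 to 5.11 (without Canton S), with 1.55 in limma-voom. Among list medians, that of other RNA-binding regulators went to -0.051 with library totals and ran from -0.018 to 0.043 without 1 library, fate regulators went to 0.034 with no filter, muscle markers ran from -0.47 to 0.18 (without RAL-208) and fat body markers from -3.09 to 1.02 (without Canton S). The causes were not tested. No paired analysis was possible, since the wild-type libraries come from 2 different strains and the mutant libraries are technical replicates. Rbp9 rests on 57 to 153 reads a library, which limits what its differences can show.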
